A study of Mus musculus with 16 samples.

Results

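The genes described here encode the machinery by which a nerve terminal stores, docks, releases, and recovers synaptic vesicles. The rule listed 36 gene names and kept those with more than 10 counts in at least 4 of the 16 libraries, which left 34 members among 14565 genes tested (24421 rows in the table). Syt2 and Slc17a6 did not pass the rule. The 34 members fall into 8 roles: 7 active zone scaffolds, 4 genes of priming and Rab3, 8 of SNARE fusion, 4 calcium sensors, 6 vesicle proteins, 2 transporters that load transmitter, 2 genes of vesicle recovery, and 1 adhesion gene.

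At a synapse, vesicles filled with transmitter are tethered to the active zone, a protein scaffold on the presynaptic membrane, and are primed there by Unc13 proteins and by Rab3 with its effectors. Vesicle and membrane SNARE proteins then zip together, complexins hold the assembled complex ready, and synaptotagmins trigger fusion when calcium enters, after which dynamin and amphiphysin help to take the membrane back up. Most of these genes are used as neuronal genes, and microglia, the resident macrophages of the brain, are known as cells that engulf synaptic material.

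RNA was sequenced from CD11b+ cells of female C57BL/6J mice, and diets ran for a month after weaning. CON mice (n = 4 libraries) ate the standard diet D09051102, and MAL mice (n = 5) ate the isocaloric diet D14071001, low in protein and fat. MAL-BG mice (n = 7) ate the MAL diet and were also gavaged with a mix of commensal E. coli and Bacteroidales species, while CON and MAL mice received PBS by gavage. The brain was dissociated with enzymes and CD11b+ cells, which are microglia and other myeloid cells, were held on a magnetic column. The methods name whole cerebra as the source and the labels name cortical tissue. The comparisons ask how the diet, alone or with bacterial gavage, changed the transcripts of this cell fraction.

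Library totals ranged from 10312703 to 13461574 counts in CON, from 10864121 to 12819982 in MAL, and from 14191791 to 18705202 in MAL-BG, so each MAL-BG library was deeper than each of the others. Levels are given as CPM, the count of a gene relative to its library total after TMM scaling. Libraries carry the running numbers of the deposited table, which match no sample title. The labelled cell type was checked with 12 microglia markers, and 12 of 12 were detected, which does not measure purity. Their summed CPM was 17600 to 28800 in CON, 18200 to 31200 in MAL, and 38800 to 52700 in MAL-BG. The summed CPM of choroid plexus markers was above that of microglia markers in CON 2, CON 3, CON 4, MAL 2, MAL 3, and MAL 5. It was below in CON 1, MAL 1, MAL 4, and every MAL-BG library. CON 1 and MAL 4 stood apart within their groups. CON 1 had the lowest CON value for 29 of 34 members, and MAL 4 had the lowest MAL value for 29 of 34. These libraries also had the highest summed microglia CPM of their groups (28800 and 31200) and the lowest summed choroid plexus CPM (14100 and 6540).

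Transcripts of the release machinery were lower in MAL-BG than in both other groups. MAL-BG libraries had a summed member CPM of 260 ± 43.6 (SD, n = 7), where CON libraries had 650 ± 182 (SD, n = 4) and MAL libraries had 527 ± 114 (SD, n = 5). The highest MAL-BG sum, 316 CPM, lay below the lowest CON sum of 398 CPM and the lowest MAL sum of 395 CPM. Members kept very different shares of their level, and the difference between members was not tested. Snap25, a SNARE protein of the presynaptic membrane, retained 8.01% of its CON mean in MAL-BG, and the vesicle glutamate transporter gene Slc17a7 retained 3.31%. Vamp2, the main vesicle SNARE, retained 70.5%, and the vesicle protein gene Sv2a retained 91.2%. In RNA from a pool of cells, fewer cells of a type and less RNA per cell cannot be told apart.

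In edgeR's quasi-likelihood test over 14565 genes with Benjamini-Hochberg adjustment, a gene counted as called when its adjusted p was under 0.05 and its log2 fold change was beyond 0.58 in either direction. Against CON, 30 of 34 members were called lower in MAL-BG and 0 higher, where 21.7% of genes tested were called lower and 11.4% higher. Against MAL, 28 of 34 members were called lower and 0 higher, where 20.2% of genes tested were called lower and 10.2% higher. The median log2 fold change of the members was -2.60 against CON and -2.41 against MAL, beside -0.04 and -0.03 over all genes tested. Both comparisons share the 7 MAL-BG libraries. The members called in both numbered 28. These counts describe the members and are not a test of the list, because 13 of the 34 passed the filter without 4 MAL-BG libraries above 10 counts and so could pass only by being higher elsewhere.

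The libraries separated as well. Every MAL-BG library lay below every CON library for 16 of 34 members, where 11.1% of genes tested did so, and below every MAL library for 22 of 34, where 8.95% did so. For 14 members the 7 MAL-BG libraries lay below all 9 other libraries, beside 6.36% of genes tested. As with the calls, these counts are not a test of the list. Rims1, Rims2, Rims3, Pclo, Syn1, and Slc17a7 are among the 14 and passed the filter without 4 MAL-BG libraries above 10 counts. The shares of all genes tested were not matched for this. The counts of calls were also 30 against CON and 28 against MAL when CON 1 and MAL 4 were omitted, a setting chosen after seeing the data. The 28 were not the same members, because Bsn lost its call against MAL (-0.54) and Slc32a1 gained one (-2.14). Of all genes called against CON, 34.4% were higher in MAL-BG. With libraries scaled by their mean log2 CPM, this share became 61.4%, the all-gene median was 0.25, and 27 members were called lower. With unscaled library totals, the share was 22.4%, the all-gene median was -0.17, and 32 members were called lower. Against MAL, the share of higher calls was 33.4%, 62.2%, and 20.1% in the same order of scalings, and 28, 26, and 29 members were called lower.

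**Figure D1:**
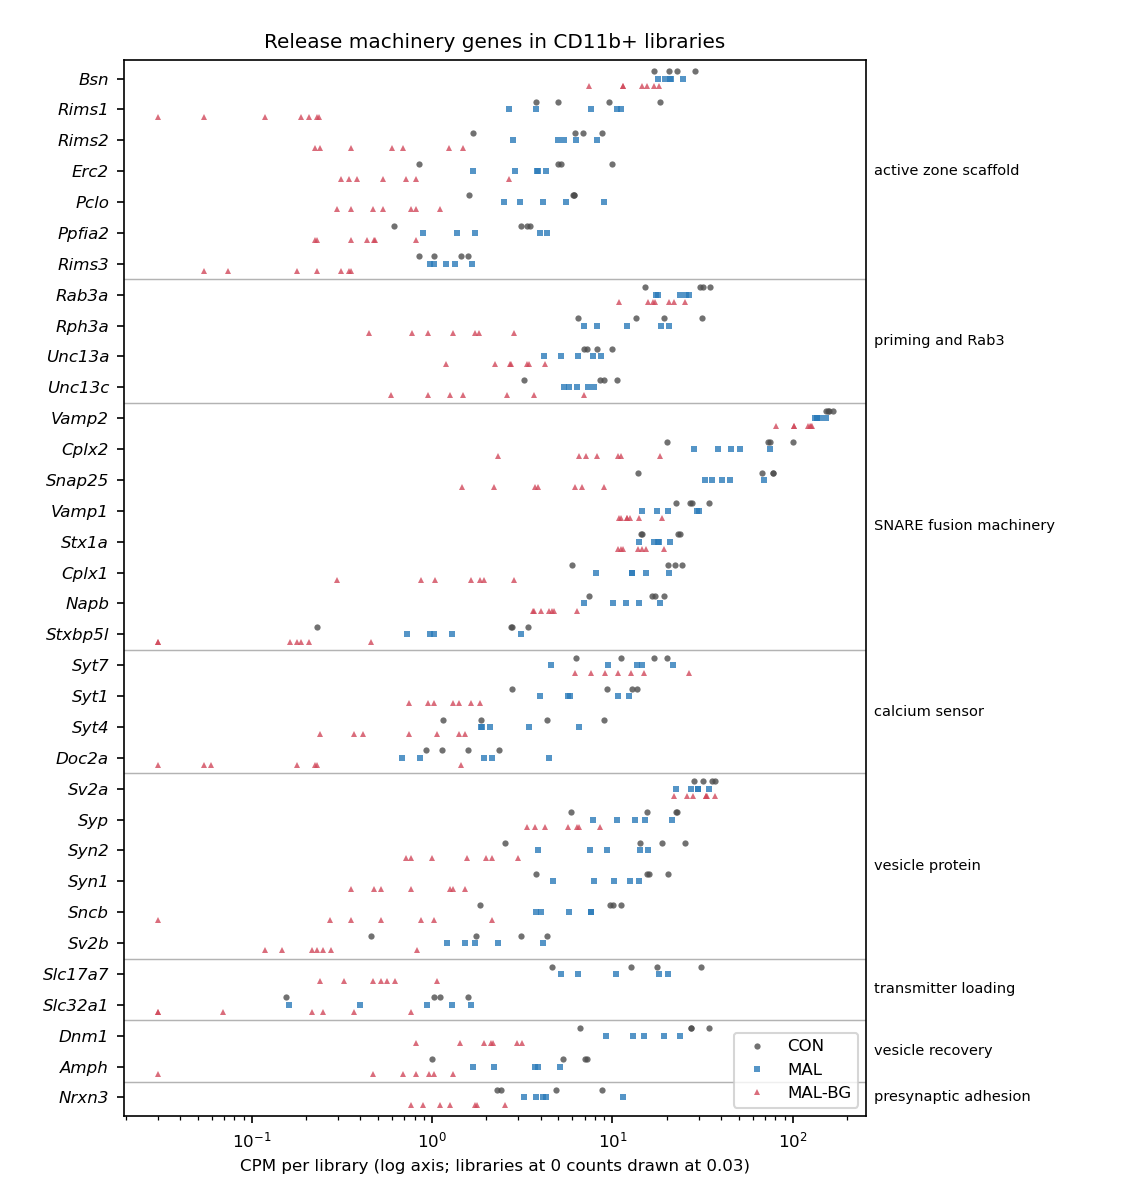
CPM of each of the 34 members (rows, grouped by role) in each library (points, log axis), for CON, MAL, and MAL-BG, with libraries at 0 drawn at the left edge. For 14 members, among them Rims1, Snap25, and Slc17a7, the MAL-BG points lie left of all CON and MAL points, while Syt7 and Sv2a overlap across the 3 groups.

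To show the DNA around the start sites, promoter sequences are printed for the 3 members with the largest falls against CON, Rims1, Slc17a7, and Syn1, and for 2 members called in neither comparison, Stx1a and Sv2a. They are from RefSeq on GRCm38.p6, cover up to 250 bases upstream of the most upstream start, and read 5′ to 3′ on the gene's strand. Capitals mark the motifs named below on either strand. The windows of Syn1 and Sv2a are shorter because annotated exons in them were left out.
Rims1 (chr1:22806159-22806408, minus strand): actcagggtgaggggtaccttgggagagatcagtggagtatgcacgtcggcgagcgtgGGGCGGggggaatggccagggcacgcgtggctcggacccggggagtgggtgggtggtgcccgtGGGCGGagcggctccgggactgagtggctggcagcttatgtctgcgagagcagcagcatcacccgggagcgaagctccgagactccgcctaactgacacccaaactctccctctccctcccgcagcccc
Slc17a7 (chr7:45163671-45163920, plus strand): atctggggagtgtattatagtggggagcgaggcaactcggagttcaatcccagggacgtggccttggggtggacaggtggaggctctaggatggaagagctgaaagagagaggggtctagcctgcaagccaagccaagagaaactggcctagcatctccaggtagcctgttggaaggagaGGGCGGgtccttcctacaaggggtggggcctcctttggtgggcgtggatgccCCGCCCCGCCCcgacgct
Syn1 (chrX:20921005-20921168, minus strand): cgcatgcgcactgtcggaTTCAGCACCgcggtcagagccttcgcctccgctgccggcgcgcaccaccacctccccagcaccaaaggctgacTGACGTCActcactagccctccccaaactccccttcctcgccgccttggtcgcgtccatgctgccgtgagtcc
Stx1a (chr5:135023232-135023481, plus strand): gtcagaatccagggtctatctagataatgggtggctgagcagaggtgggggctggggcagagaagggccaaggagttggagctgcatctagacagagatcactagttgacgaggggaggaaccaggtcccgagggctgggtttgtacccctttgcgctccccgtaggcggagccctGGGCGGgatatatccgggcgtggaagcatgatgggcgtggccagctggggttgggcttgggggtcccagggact
Sv2a (chr3:96180977-96181150, plus strand): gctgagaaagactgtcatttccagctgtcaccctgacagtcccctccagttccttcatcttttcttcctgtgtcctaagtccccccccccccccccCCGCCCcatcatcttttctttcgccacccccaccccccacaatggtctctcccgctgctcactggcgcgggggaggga

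Of the 36 listed names, 30 had a promoter entry, and Doc2a, Rims2, Snap25, Syt4, Syt7, and Vamp2 had none. The GC box GGGCGG, searched on both strands, was found in 19 of 30 windows of the listed genes and in 33.0% of 27025 promoters of 250 bases. It is present in the windows of Rims1 and Slc17a7, which fell most, and in those of Stx1a and Sv2a, which were not called. The left part of the RE1 element, TTCAGCACC, was found in the Syn1 window 232 bases before the start and in 0.292% of all promoters. RE1 is the site bound by REST, a repressor of neuronal genes in other cells. The right part, GGACAGC, was in 0 of 30 windows and in 5.28% of all promoters. The cyclic AMP response element TGACGTCA was in the Syn1 window 159 bases before the start and in 1.60% of promoters, and the TATA box TATAAA was in the Sv2b window and in 13.0%. A motif match describes the letters of a window and is not evidence of binding.

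Every tested member of the active zone scaffold was called lower. Of its 7 members, 7 were called lower against CON and 7 against MAL, and their median was -2.64 and -2.47 on the log2 scale. Rims1, Rims2, Rims3, Pclo, Erc2, and Ppfia2 passed the filter without 4 MAL-BG libraries above 10 counts. They could pass only by being higher elsewhere, so these counts and medians are not a test of the class. Rims1, a Rab3-binding organizer of the active zone (chromosome 1 from 22285972 to 22806158), had the largest fall of the 34 members. CON 1 to CON 4 held 3.76, 5.01, 18.4, and 9.61 CPM of Rims1, and MAL 1 to MAL 5 held 10.6, 7.61, 3.79, 2.66, and 11.2 CPM. In MAL-BG the lowest Rims1 value was 0, the median 0.187, and the highest 0.236 CPM. The whole MAL-BG group held 16 counts of Rims1, where CON held 464 and MAL held 444, and each MAL-BG library lay below each of the others. On the log2 scale Rims1 fell by 5.89 ± 0.570 (SE) against CON (adjusted p = 4.58e-06, edgeR) and by 5.53 ± 0.557 against MAL (adjusted p = 8.04e-06).

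Bassoon, the large scaffold encoded by Bsn, was the most abundant of the class in CPM and fell least. Its CON values were 22.9, 17.1, 28.8, and 20.6 CPM, its MAL values were 19.5, 21.2, 17.8, 20.9, and 24.5 CPM, and its MAL-BG values ran from 7.38 to 18.2 with a median of 14.6 CPM. The highest MAL-BG library thus overlapped the lowest CON and MAL libraries. Bsn fell on the log2 scale by 0.71 ± 0.202 (SE) against CON (adjusted p = 0.00908, edgeR) and by 0.61 ± 0.191 against MAL (adjusted p = 0.0166). Both calls of Bsn were lost with mean log2 CPM scaling (-0.41 and -0.33) and with offsets for GC content and gene length (-0.13 and -0.10), and the sign turned when these were joined to scaling by mean log2 CPM (0.17 and 0.17). Part of the Bsn exons is shared with Gm47303 on the same strand, so reads there could not be assigned with certainty.

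The other scaffolds sat between these extremes. Piccolo (Pclo), the partner of bassoon, had mean levels of 4.98, 4.83, and 0.619 CPM in CON, MAL, and MAL-BG, with a log2 fold change of -2.99 against CON. Rims2, the second RIM organizer, had 5.89, 5.54, and 0.691 CPM (-3.08). Rims3, a short RIM, had 1.22, 1.24, and 0.221 CPM (-2.42). For these 3 genes every MAL-BG library was below every CON and MAL library. Erc2, which binds RIM and bassoon, had 5.25, 3.32, and 0.822 CPM (-2.64), and MAL-BG 5 reached 2.66 CPM, inside the CON range. Ppfia2, a liprin that links scaffold proteins, had 2.63, 2.46, and 0.431 CPM (-2.56), and its lowest CON library, CON 1 at 0.614 CPM, lay within the MAL-BG range.

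Genes of priming and Rab3 were called lower in 4 of 4 cases against CON and 3 of 4 against MAL. Rab3a, the vesicle GTPase that docks vesicles to RIM (chromosome 8 from 70754703 to 70758608), was the most abundant. CON 1 to CON 4 held 15.1, 34.9, 31.7, and 30.4 CPM of Rab3a, MAL 1 to MAL 5 held 17.8, 25.6, 26.6, 17.5, and 23.7 CPM, and MAL-BG libraries ran from 10.9 to 25.1 with a median of 17.2 CPM. Only CON 1 among the CON libraries lay inside the MAL-BG range, whereas 3 MAL libraries did. Its log2 fold change was -0.62 ± 0.226 (SE) against CON (adjusted p = 0.035, edgeR), just past the fold threshold, and -0.28 ± 0.214 against MAL (adjusted p = 0.294). The Rab3a call against CON was lost without CON 2, CON 3, CON 4, MAL-BG 1, MAL-BG 4, MAL-BG 6, or MAL-BG 7, with values from -0.49 to -0.58. It was also lost with mean log2 CPM scaling, at -0.31, and at -0.49 when the length and GC offsets were joined to that scaling.

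Rph3a encodes rabphilin, an effector that Rab3 carries to the vesicle, and it fell most in the class. Its CON values were 6.45, 13.5, 31.2, and 19.3 CPM, its MAL values 12, 20.5, 8.17, 6.93, and 18.6 CPM, and its MAL-BG values ran from 0.445 to 2.83 with a median of 1.30 CPM. No MAL-BG library reached the lowest of the others. Rph3a fell on the log2 scale by 3.65 ± 0.45 (SE) against CON (adjusted p = 2.64e-05, edgeR) and by 3.24 ± 0.434 against MAL. Unc13a, the priming factor of most excitatory terminals, went from 8.08 CPM in CON and 6.47 in MAL to 2.84 in MAL-BG, with log2 fold changes of -1.51 and -1.18. Unc13c, a relative prominent in cerebellar granule cells, went from 7.84 and 6.55 to 2.5 CPM (-1.65 and -1.39), and its MAL-BG libraries spread from 0.594 to 6.96 CPM, overlapping both groups.

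Of the SNARE fusion genes, 6 of 8 were called lower against CON and 6 of 8 against MAL. Stxbp5l passed the filter without 4 MAL-BG libraries above 10 counts, so these counts are not a test of the class. Vamp2, the SNARE of the vesicle membrane (chromosome 11 from 69088528 to 69092381), was the most abundant member in every group. CON 1 to CON 4 held 157, 159, 166, and 153 CPM of Vamp2, MAL 1 to MAL 5 held 136, 132, 137, 142, and 152 CPM, and MAL-BG libraries ran from 81.1 to 127 with a median of 122 CPM. All 7 MAL-BG libraries were below the other 9. For Vamp2 the log2 fold change was -0.50 ± 0.112 (SE) against CON (adjusted p = 0.00186, edgeR) and -0.32 ± 0.105 against MAL (adjusted p = 0.021), so Vamp2 passed on the adjusted p and missed the fold threshold. With unscaled library totals Vamp2 passed against CON at -0.63.

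Stx1a, the syntaxin that pairs with Vamp2 on the presynaptic membrane, was called in neither comparison. Its CON libraries held 23.1, 14.5, 23.6, and 14.4 CPM, its MAL libraries 18.1, 20.9, 14.1, 17.0, and 17.8 CPM, and its MAL-BG libraries from 10.7 to 19.2 with a median of 13.9 CPM. The groups overlapped. For Stx1a the log2 fold change was -0.46 ± 0.187 (SE) against CON (adjusted p = 0.0537, edgeR) and -0.36 ± 0.176 against MAL (adjusted p = 0.107), and with unscaled library totals Stx1a was called against CON at -0.59. Snap25, the third SNARE of the same complex, behaved otherwise. It held 13.8, 67.1, 77.8, and 78.0 CPM in CON 1 to CON 4, and 35.5, 40.4, 44.7, 32.5, and 68.8 CPM in MAL 1 to MAL 5. In MAL-BG it ran from 1.46 to 9.03 with a median of 3.86 CPM, below every other library. Snap25 fell on the log2 scale by 3.65 ± 0.445 (SE) against CON (adjusted p = 2.4e-05, edgeR) and by 3.24 ± 0.428 against MAL (adjusted p = 4.65e-05).

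Stxbp5l encodes tomosyn-2, which binds syntaxin and limits SNARE assembly, and had the largest fall of the class at low counts. CON 1 to CON 4 held 0.230, 2.78, 3.39, and 2.73 CPM of Stxbp5l, MAL 1 to MAL 5 held 1.02, 0.970, 1.29, 0.725, and 3.11 CPM, and MAL-BG libraries ran from 0 to 0.460 with a median of 0.178 CPM. CON 1 lay inside the MAL-BG range and all MAL libraries lay above it. On the log2 scale Stxbp5l fell by 3.70 ± 0.697 (SE) against CON (adjusted p = 0.000593, edgeR) and by 3.02 ± 0.682 against MAL. The complexins fell together. Cplx1 went from 18.2 CPM in CON and 14.0 in MAL to 1.5 in MAL-BG (-3.60 against CON), and Cplx2 went from 66.8 and 47.5 to 9.24 CPM (-2.86). For both, every MAL-BG library was below every other library.

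Vamp1, the vesicle SNARE of fast spinal and brainstem synapses, went from 27.8 CPM in CON and 22.4 in MAL to 13.1 in MAL-BG, with log2 fold changes of -1.09 and -0.78. The call of Vamp1 against MAL was lost with scaling by mean log2 CPM (-0.51) and under length and GC offsets (-0.51), and it stood at -0.25 when both were applied. Napb, the brain form of alpha-SNAP, which helps to take spent SNARE complexes apart, went from 15.1 and 12.3 to 4.49 CPM (-1.75 and -1.45), with every MAL-BG library below the other 9.

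**Figure D2:**
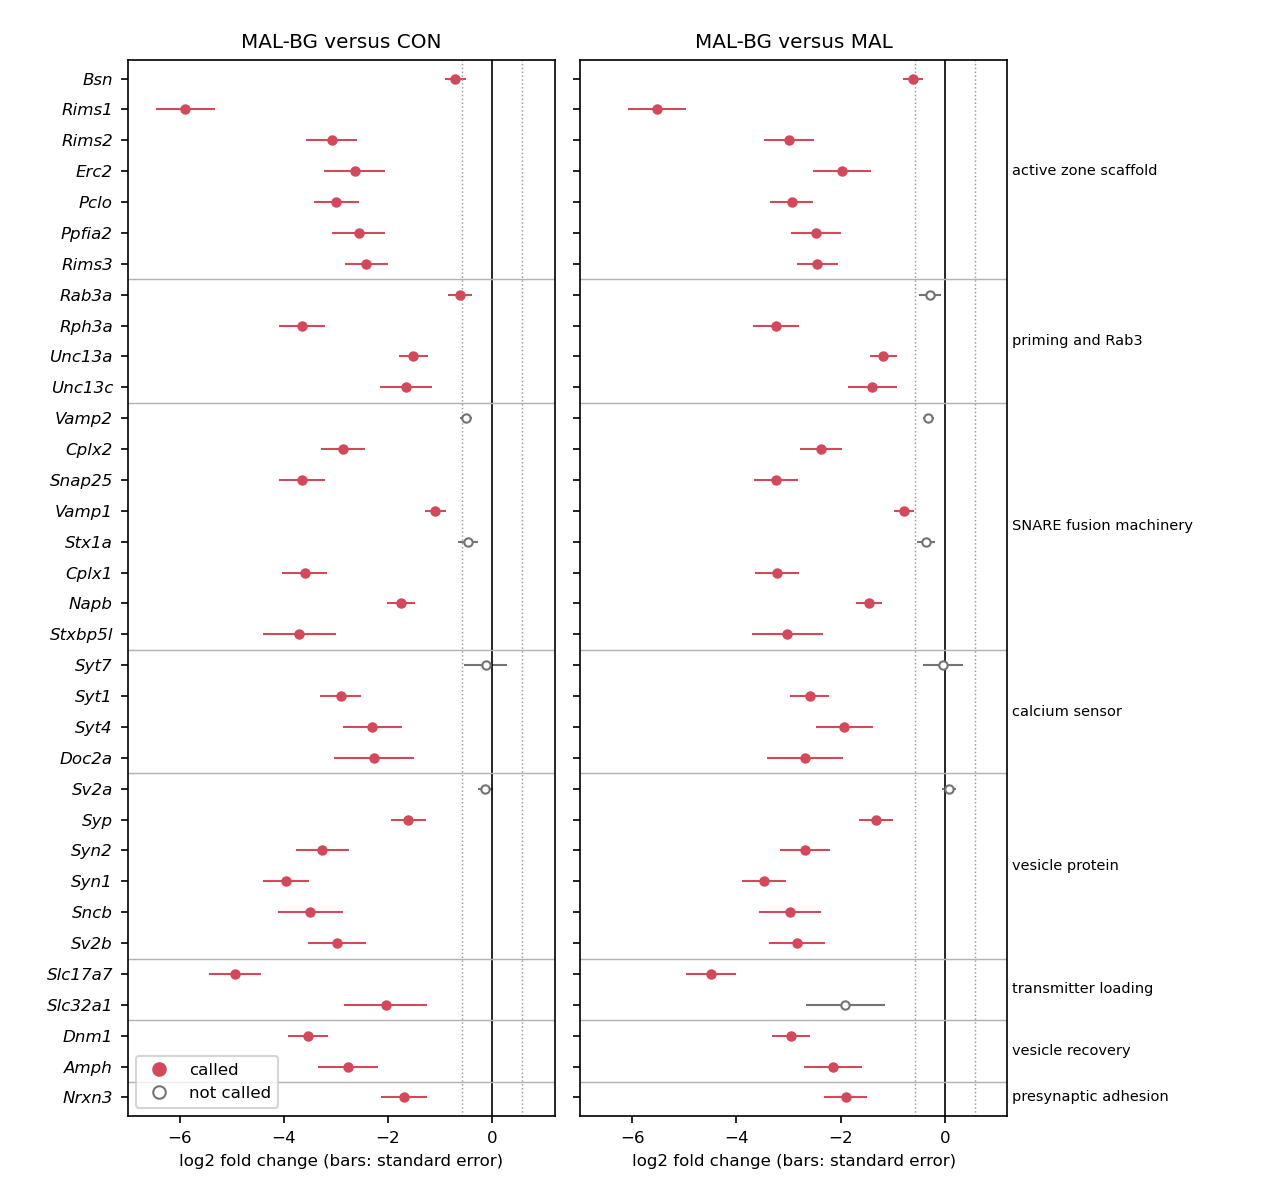
Fitted log2 fold change (points) with its standard error (bars) of each of the 34 members in MAL-BG against CON (left) and against MAL (right), with dotted lines at the threshold of 0.58. Filled points are called, 30 on the left and 28 on the right. Values run from -5.89 for Rims1 to -0.12 for Syt7 on the left, and Syt7, Sv2a, and Bsn turn sign under some scalings or offsets.

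Of the calcium sensors tested, 3 of 4 were called lower in each comparison. Doc2a passed the filter without 4 MAL-BG libraries above 10 counts, so these counts are not a test of the class. Syt1, the fast calcium trigger of release (chromosome 10 from 108497650 to 109010980), held 2.76, 9.28, 13.6, and 12.8 CPM in CON 1 to CON 4 and 5.70, 10.7, 5.85, 3.95, and 12.3 CPM in MAL 1 to MAL 5. In MAL-BG it ran from 0.747 to 1.84 with a median of 1.31 CPM, below each of the other 9 libraries. Syt1 fell on the log2 scale by 2.91 ± 0.390 (SE) against CON (adjusted p = 5.09e-05, edgeR) and by 2.59 ± 0.375 against MAL (adjusted p = 8.79e-05).

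Syt7, a slower calcium sensor that also acts in lysosome fusion outside neurons, was the most abundant sensor and was called in neither comparison. It held 6.30, 11.1, 16.9, and 20.0 CPM in CON 1 to CON 4, 9.45, 14.6, 13.6, 4.59, and 21.6 CPM in MAL 1 to MAL 5, and from 6.18 to 26.5 with a median of 10.8 CPM in MAL-BG. The 3 groups overlapped throughout. For Syt7 the fitted value was -0.12 ± 0.414 (SE) against CON (adjusted p = 0.835, edgeR) and -0.03 ± 0.388 against MAL (adjusted p = 0.959), and it was 0.17 and 0.23 with scaling by mean log2 CPM. Syt4, a sensor found on dense-core vesicles, went from 4.09 CPM in CON and 3.16 in MAL to 0.824 in MAL-BG (-2.30 and -1.93). Doc2a, a sensor of spontaneous release, went from 1.5 and 2.01 to 0.313 CPM (-2.27 and -2.69), and without CON 3 its call against CON was lost (-1.95). Syt2, the fast sensor of hindbrain synapses, had group totals of 24 counts for CON, 15 for MAL, and 6 for MAL-BG, and was not tested.

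Among the vesicle proteins, 5 of 6 were called lower in each comparison. Syn1, Sv2b, and Sncb passed the filter without 4 MAL-BG libraries above 10 counts, so these counts are not a test of the class. Sv2a, a vesicle glycoprotein that is the target of the drug levetiracetam (chromosome 3 from 96181227 to 96195183), was the most abundant. It held 31.9, 37.1, 35.5, and 28.5 CPM in CON 1 to CON 4, 27.2, 29.7, 29.8, 22.6, and 34.1 CPM in MAL 1 to MAL 5, and from 22.0 to 37.2 with a median of 32.8 CPM in MAL-BG. The ranges coincided almost fully. For Sv2a the fitted log2 fold change was -0.13 ± 0.144 (SE) against CON (adjusted p = 0.473, edgeR) and 0.08 ± 0.136 against MAL (adjusted p = 0.657). Its relative Sv2b went from 2.42 CPM in CON and 2.18 in MAL to 0.295 in MAL-BG (-2.98 and -2.84).

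Syn1, a synapsin that ties vesicles to the reserve pool (chromosome X from 20860511 to 20920918), fell most in the class. CON 1 to CON 4 held 3.76, 15.6, 20.2, and 16 CPM of Syn1, MAL 1 to MAL 5 held 7.92, 12.5, 10.2, 4.67, and 14.0 CPM, and MAL-BG libraries ran from 0.354 to 1.52 with a median of 0.766 CPM. The highest MAL-BG library was below CON 1, the lowest of the others. On the log2 scale Syn1 fell by 3.96 ± 0.442 (SE) against CON (adjusted p = 1.16e-05, edgeR) and by 3.47 ± 0.426 against MAL (adjusted p = 2.67e-05). Syn2, the second synapsin, went from 15.2 and 10.2 to 1.59 CPM (-3.26 and -2.68). Sncb, beta-synuclein of the terminal, went from 8.23 and 5.75 to 0.742 CPM (-3.49 and -2.97). Syp, synaptophysin of the vesicle membrane, retained more, going from 16.7 and 13.7 to 5.49 CPM (-1.61 and -1.32).

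The transporters that load vesicles were called lower in 2 of 2 cases against CON and 1 of 2 against MAL. Slc17a7 and Slc32a1 both passed the filter without 4 MAL-BG libraries above 10 counts, so these counts are not a test of the class. Slc17a7, which encodes the glutamate transporter VGLUT1 of cortical excitatory neurons (chromosome 7 from 45163921 to 45176139), was both the most abundant and the one that fell most. It held 4.61, 12.6, 30.9, and 17.7 CPM in CON 1 to CON 4, and 10.5, 20.4, 6.45, 5.16, and 18.1 CPM in MAL 1 to MAL 5. In MAL-BG it ran from 0.238 to 1.07 with a median of 0.519 CPM. Each MAL-BG library lay below the other 9, and on the log2 scale Slc17a7 fell by 4.93 ± 0.499 (SE) against CON (adjusted p = 6.15e-06, edgeR) and by 4.49 ± 0.484 against MAL (adjusted p = 1.14e-05).

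Slc32a1, the transporter that loads GABA and glycine, was measured at low counts. It held 0.154, 1.02, 1.10, and 1.59 CPM in CON 1 to CON 4, 0.936, 1.64, 1.29, 0.161, and 0.398 CPM in MAL 1 to MAL 5, and from 0 to 0.766 with a median of 0.217 CPM in MAL-BG, with overlap in both comparisons. For Slc32a1 it was -2.04 on the log2 scale with an SE of 0.797 against CON (adjusted p = 0.0464, edgeR) and -1.91 with an SE of 0.763 against MAL (adjusted p = 0.0509). Both values lay close to the threshold, and the call against CON was lost when any 1 of 13 libraries was left out, CON 2, CON 3, and CON 4 among them. Slc17a6, the VGLUT2 gene of thalamus and brainstem, had group totals of 19 counts for CON, 13 for MAL, and 12 for MAL-BG, and was not tested.

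Vesicle recovery genes were called lower in 2 of 2 cases in each comparison. Dnm1, the neuronal dynamin that pinches recovered vesicles off the membrane (chromosome 2 from 32308471 to 32353349), held 6.60, 27.3, 34.5, and 27.4 CPM in CON 1 to CON 4 and 13.0, 19.2, 14.9, 9.19, and 23.7 CPM in MAL 1 to MAL 5. In MAL-BG it ran from 0.814 to 3.14 with a median of 2.12 CPM, below each other library. On the log2 scale Dnm1 fell by 3.53 ± 0.387 (SE) against CON (adjusted p = 1.05e-05, edgeR) and by 2.95 ± 0.372 against MAL (adjusted p = 3.34e-05). Amph, amphiphysin, which recruits dynamin to curved membrane, went from 5.12 CPM in CON and 3.32 in MAL to 0.753 in MAL-BG (-2.76 and -2.14).

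Nrxn3, a neurexin that joins the terminal to the postsynaptic cell (chromosome 12 from 88722701 to 90334935), was the adhesion gene. It held 2.30, 2.41, 4.89, and 8.78 CPM in CON 1 to CON 4, 3.75, 4.10, 4.30, 3.22, and 11.4 CPM in MAL 1 to MAL 5, and from 0.759 to 2.53 with a median of 1.25 CPM in MAL-BG. The MAL-BG libraries were below every MAL library, and overlapped CON 1 and CON 2. On the log2 scale Nrxn3 fell by 1.69 ± 0.435 (SE) against CON (adjusted p = 0.00509, edgeR) and by 1.90 ± 0.414 against MAL (adjusted p = 0.00172).

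The diet alone gave no call among these genes. In MAL against CON, 0 of 34 members were called, where 0.0% of genes tested were called. Over all genes tested, edgeR called 0, and 212 (1.46%) had an unadjusted p under 0.05. DESeq2 also called 0, with 241 (1.65%) under 0.05 unadjusted. Of the 34 members, 0 had an unadjusted p under 0.05 in edgeR. The member values leaned low, with 31 of 34 below 0 and a median log2 fold change of -0.32, beside -0.02 over all genes tested. They ran from -0.68 ± 0.671 (SE) for Stxbp5l to 0.43 ± 0.780 for Doc2a, and the standard errors, from 0.121 for Vamp2 to 0.805 for Slc32a1, leave room for differences of that order.

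The makeup of the release transcripts shifted along with their sum. Per kilobase of exon, Vamp2 was first in each group, at 41.7 CPM per kb in CON, at 36.7 in MAL, and at 29.4 in MAL-BG. In CON the next were Cplx2 at 13.6, Rab3a at 12.6, Snap25 at 8.71, and Cplx1 at 8.30 CPM per kb. In MAL-BG the next were Rab3a at 8.22, Sv2a at 6.54, Stx1a at 5.15, and Cplx2 at 1.87 CPM per kb, and Snap25 was at 0.698. Between Cplx2 and Rab3a in CON the gap was smaller than the spread of Cplx2 between libraries. The share of Vamp2 in the summed member CPM had a group median of 43.8% in MAL-BG, beside 22.8% in CON and 27.7% in MAL, and the lowest MAL-BG share, 40.3%, lay above the highest CON share of 39.4%. The share of Sv2a likewise went from a median of 4.95% in CON to 11.5% in MAL-BG, while that of Snap25 went from 9.77% to 1.60%.

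**Figure D3:**
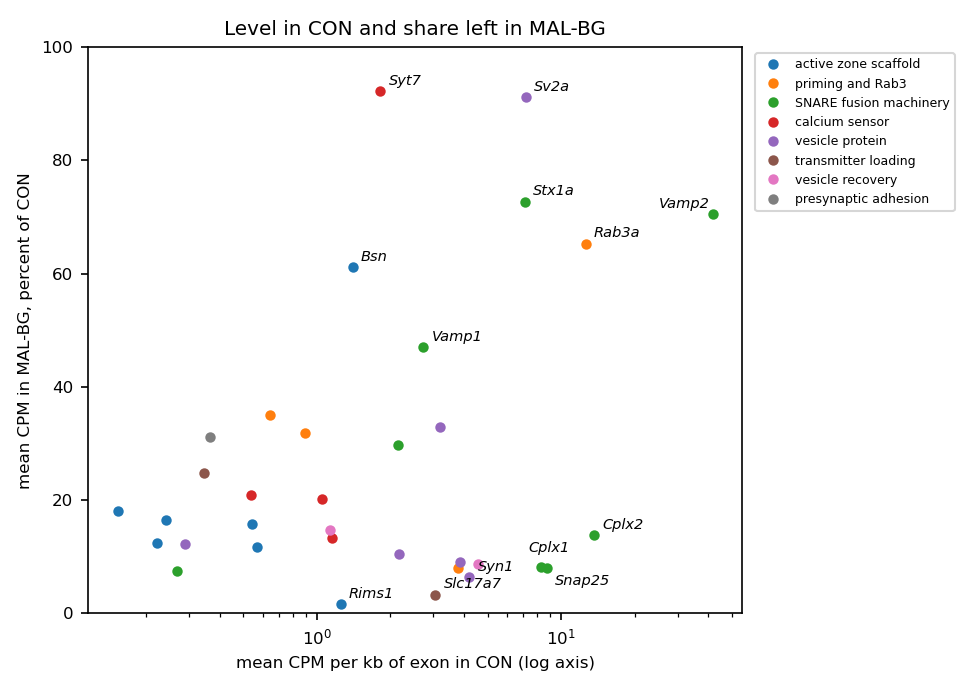
Mean CPM per kilobase of exon in CON (x axis, log scale) and the mean MAL-BG CPM as a percent of the CON mean (y axis) for the 34 members, coloured by role. Syt7, Sv2a, Stx1a, Vamp2, Rab3a, and Bsn lie above 60%, Vamp1 at 47.0%, and Rims1 lowest at 1.60%, and 22 members lie below 25%.

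The size of the fall was set beside simple properties of the genes. Across the 34 members, the log2 fold change against CON had a Spearman correlation of -0.32 with the length of the gene from start to end, 0.04 with exon length, and 0.15 with the CON level, as a description across genes that share the same 16 libraries. The 6 members above 60% of CON came from 5 roles. Exons of several members overlap a gene on the other strand, among them Rab3a with Mpv17l2, Unc13a with Colgalt1, Syn1 with Araf, Syn2 with Timp4, and Doc2a with Ino80e. The strand option of the counting is not given in the sources used here, so reads of such pairs cannot be told apart.

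Other genes of the presynaptic pathway, 56 listed and 49 tested, were mostly called lower in MAL-BG by gene, but not in sum. Against CON, 36 of 49 were called lower and 2 higher, where 21.7% of genes tested were called lower and 11.4% higher. Against MAL, 31 were called lower and 1 higher, where 20.2% of genes tested were called lower and 10.2% higher. The median log2 fold change of the 49 was -1.92 and -1.57. Some of the 49, such as Rimbp2, passed the filter without 4 MAL-BG libraries above 10 counts, so these values are not a test of the list. The summed CPM of the listed genes was 1440 ± 106 (SD, n = 7) in MAL-BG, beside 1400 ± 72.1 (SD, n = 4) in CON and 1310 ± 50.9 (SD, n = 5) in MAL. None of the 3 most abundant genes of the list was called lower. Scamp5, a secretory carrier membrane protein, held 340, 164, 175, and 144 CPM in CON 1 to CON 4 and from 284 to 490 CPM in MAL-BG, and rose by 0.81 ± 0.220 (SE) on the log2 scale against CON and 0.82 ± 0.204 against MAL. The adjusted p of Scamp5 in edgeR was 0.00701 and 0.00418. Ppfia4, a liprin, held from 245 to 314 CPM in CON and from 279 to 455 CPM in MAL-BG, and its log2 fold change of 0.58 ± 0.144 against CON was just past the threshold. Syngr1, a vesicle synaptogyrin, had mean levels of 149, 139, and 196 CPM in CON, MAL, and MAL-BG, and was called in neither comparison (0.40 and 0.50).

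Members were then set beside relatives for the same steps, here called broadly used. Most cell types use most of them, but Unc13d and Bin2 are genes of immune and myeloid cells. Of 31 such relatives listed, 30 were tested, and the other, Vamp7, had 0 counts in every library. The median log2 fold change of the relatives was 0.17 against CON and 0.12 against MAL. Against CON, 3 of 30 were called lower and 5 higher, where 21.7% of genes tested were called lower and 11.4% higher. Against MAL, 3 were called lower and 5 higher, where 20.2% of genes tested were called lower and 10.2% higher. These counts depend on the scaling: with scaling by mean log2 CPM, 0 were called lower and 9 higher against CON. The relatives were also far more abundant, with a summed CPM of 3700 ± 434 (SD, n = 4) in CON and 4980 ± 561 (SD, n = 7) in MAL-BG.

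Pairs of a neuronal gene and its broadly used relative showed the contrast. Snap23, the SNARE that most cells use in place of Snap25, had 60.0, 58.3, and 39.9 CPM in CON, MAL, and MAL-BG and a log2 fold change of -0.59 ± 0.242 (SE) against CON (adjusted p = 0.0579, edgeR). Vamp3, used in place of Vamp2, stood at 0.01 ± 0.0932, Vamp8 beside Vamp1 at 0.42 ± 0.166, and Stx4 beside Stx1a at 0.19 ± 0.149. Napa, the general alpha-SNAP beside Napb, stood at -0.18 ± 0.0904, and Unc13d, the priming factor of immune cells beside Unc13a, at 0.23 ± 0.215. None of these 6 relatives was called in either comparison. Rab3d beside Rab3a stood at 0.67 ± 0.337, Erc1 beside Erc2 at -0.54 ± 0.286, and Dnm2, the general dynamin beside Dnm1, at 0.17 ± 0.138, also without a call.

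The relatives called in MAL-BG went both ways. Bin1, an amphiphysin family gene set beside Amph, held 924, 591, 666, and 559 CPM in CON 1 to CON 4 and from 774 to 1530 CPM in MAL-BG, with a log2 fold change of 0.68 ± 0.187 (SE) against CON (adjusted p = 0.00783, edgeR). Scamp2, a carrier membrane protein, went from 339 and 356 CPM in CON and MAL to 879 in MAL-BG (1.37 ± 0.224), and Syngr2, a synaptogyrin, from 206 and 214 to 474 CPM (1.2 ± 0.204). Sypl beside Syp was at 0.92 ± 0.103 and Syt11 beside Syt4 at 0.90 ± 0.246. Lower calls fell on Ppfia1 beside Ppfia2 at -0.72 ± 0.102, on Snap47, a SNAP25 relative, at -0.74 ± 0.215, and on Bin2, an amphiphysin family gene of myeloid cells, at -0.74 ± 0.281. The difference between a member and its relative was not tested.

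**Figure D4:**
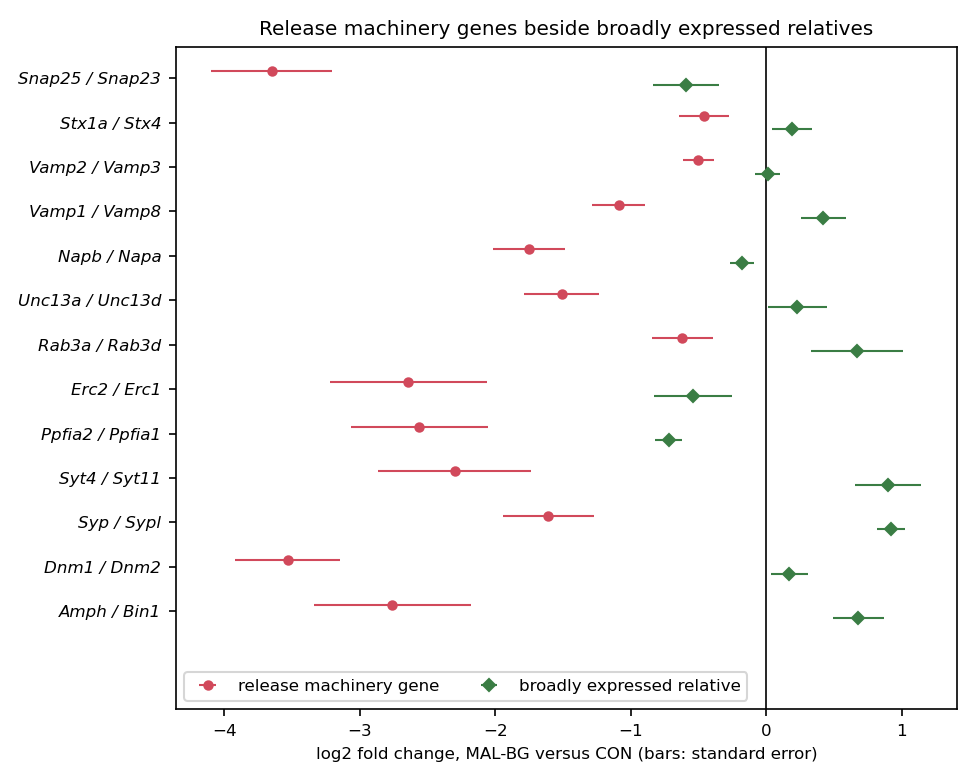
Fitted log2 fold change (points) with its standard error (bars) of MAL-BG against CON for 13 members (circles) and the broadly used relative of each (diamonds). In each of the 13 pairs the member lies left of its relative, for example at -3.65 against -0.59 for Snap25 and Snap23 and at -0.50 against 0.01 for Vamp2 and Vamp3. With scaling by mean log2 CPM, relatives called higher went from 5 to 9 of 30 and those called lower from 3 to 0.

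Most of the neuron markers moved with the members. Of 25 neuron markers that are not presynaptic, 19 were called lower and 2 higher against CON (Elavl4 at 0.81 and Chga at 3.27), and 16 were called lower and 1 higher against MAL. Of all genes tested, 21.7% were called lower and 11.4% higher against CON, and 20.2% lower and 10.2% higher against MAL. The summed CPM of the neuron markers ranged from 291 to 1010 in CON, 286 to 1020 in MAL, and 119 to 424 in MAL-BG. None of the 25 was at 0 in all libraries of a group, and Ina was at 0 in 3 MAL-BG libraries. Camk2a, a kinase of excitatory neurons, went from 162 CPM in CON to 8.31 in MAL-BG (-4.28 on the log2 scale). The ratio of summed member CPM to summed neuron marker CPM had a MAL-BG median of 1.40 (0.744 to 1.61), which overlapped CON at 0.897 (0.817 to 1.37) and MAL at 1.07 (0.689 to 1.38). The part of neuron RNA in the falls was not tested.

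Choroid plexus, ependyma, and astrocyte markers moved the same way. Of 12 choroid plexus markers, 12 were called lower against CON and 11 against MAL, with summed CPM of 14100 to 54600 in CON, 6540 to 43000 in MAL, and 1780 to 16700 in MAL-BG. Ependyma markers were called lower in 9 of 9 cases against CON and 7 against MAL, with sums of 143 to 263 in CON, 62.7 to 245 in MAL, and 31.9 to 117 CPM in MAL-BG. Astrocyte markers were called lower in 5 of 10 cases against CON and 6 against MAL, with sums of 292 to 638, 359 to 587, and 160 to 292 CPM. The other direction was taken by microglia markers, called higher in 8 of 12 cases in each comparison, and by neutrophil markers, called higher in 9 of 9 in each, with sums of 52.6 to 196 CPM in CON, 42.9 to 326 in MAL, and 193 to 12800 in MAL-BG. Oligodendrocyte lineage sums (463 to 1170, 721 to 1000, and 604 to 1380 CPM) and endothelium sums (807 to 2700, 704 to 2020, and 1650 to 4440 CPM) overlapped across the groups. Against CON, 1 of 12 oligodendrocyte lineage markers was called lower and 3 higher, and 2 of 10 endothelium markers were called higher. Against MAL, 1 of 12 oligodendrocyte lineage markers was called lower and 4 higher, and 4 of 10 endothelium markers were called higher. Beside these counts, 21.7% of genes tested were called lower and 11.4% higher against CON, and 20.2% lower and 10.2% higher against MAL. The part of these marker lists in the result was not tested.

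**Figure D5:**
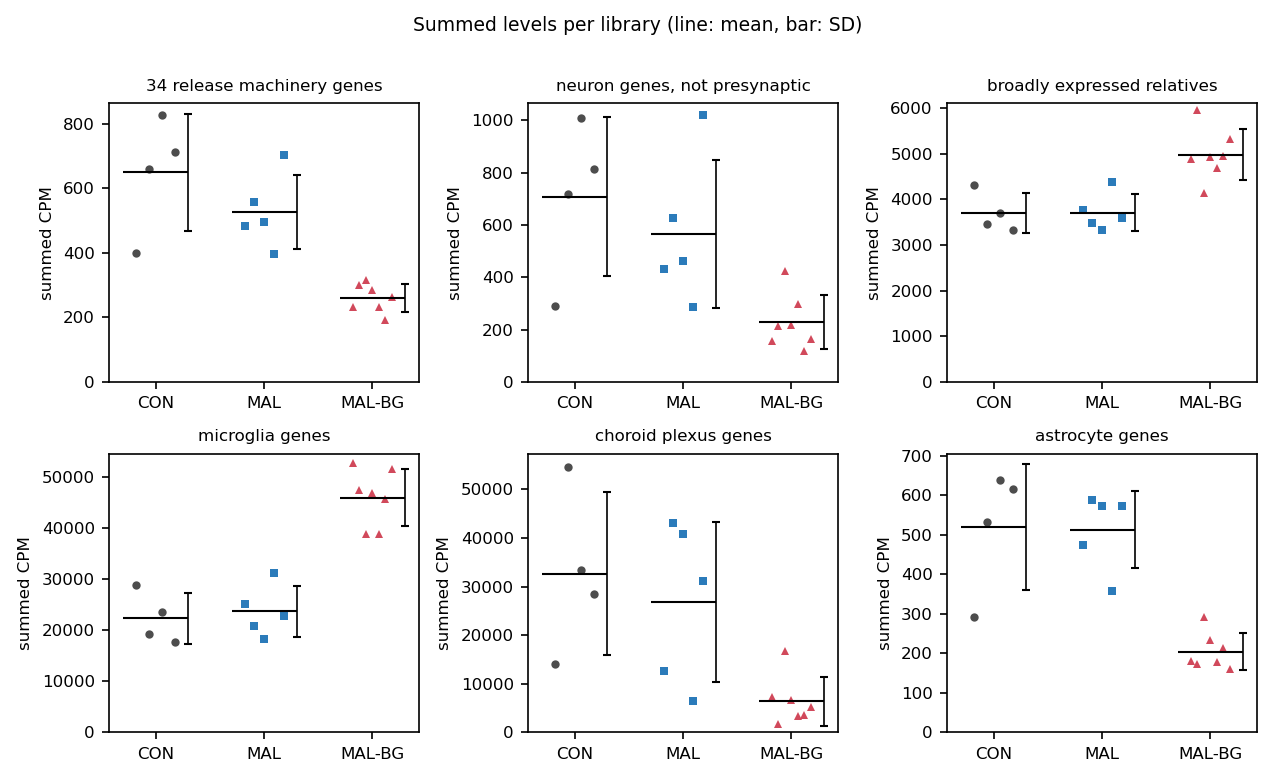
Summed CPM per library (points) with group means (lines) and SD (bars) for the 34 members, 25 neuron markers, 30 broadly used relatives, 12 microglia markers, 12 choroid plexus markers, and 10 astrocyte markers. The member sums of the 7 MAL-BG libraries, from 192 to 316 CPM, lie below the other 9, while neuron marker sums overlap, with the highest MAL-BG library at 424 CPM above CON 1 at 291 and MAL 4 at 286.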

How the data were processed

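RNA libraries were prepared with the NEBNext Ultra II stranded mRNA kit and sequenced as paired ends on a NextSeq. The authors aligned reads with STAR to GRCm38.p6, obtained gene counts with HTSeq, and the deposited file holds these raw counts, 1 column per library. Counting mode, strand setting, and annotation are not given in the sources used here. Columns were placed in groups by name, and 0 columns were left unused.

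The 14565 of 24421 rows that exceeded 10 counts in 4 or more libraries were fitted with edgeR 4.0.16 (R 4.3.3, limma 3.58.1), with TMM scaling and the 16 libraries in 1 quasi-likelihood fit. The study's own code includes a batch term, which could not be fitted here because the labels assign no library to a batch, so a part of batch in any difference was not tested. P values were adjusted by Benjamini-Hochberg over all genes tested. DESeq2 1.42.0, other scalings, other filters, thinning to 10312703 counts, and offsets for length and GC content (known for 99.25% of genes) were alternatives. The labels do not say whether each library was a separate mouse, so p-values measure the spread between libraries, which may be technical. Replicates differed beyond counting noise, with a chi-square per degree of freedom of 9.8 or more.

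Values in each CON and MAL library, and the lowest, median, and highest in MAL-BG, were given for the most abundant and most changed member of each role and for those not called in both comparisons. Of the 56 other presynaptic genes and 31 relatives, the most abundant 3 and those called against the direction of most were named. Members and lists were chosen with earlier results of these data known. Gene positions and promoters are from RefSeq on GRCm38.p6, and exon lengths from GENCODE.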

Additional observations from a re-analysis of the deposited data

Results flagged for a closer look

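Within groups, 12 of 105 sets of values had 1 library far from the rest by Dixon's criterion. Its nominal rate of about 5% holds for independent, normally distributed values. These sets share libraries and hold untransformed CPM, so the 12 cannot be set against that rate. CON 1 was far below the other CON libraries for Pclo (1.61 CPM, nearest 6.03), Ppfia2 (0.614, nearest 3.10), Snap25 (13.8, nearest 67.1), and Sncb (1.84, nearest 9.74). MAL 5 was far above the other MAL libraries for Stxbp5l (3.11 CPM, nearest 1.29) and Nrxn3 (11.4, nearest 4.30). In MAL-BG, MAL-BG 3 was high for Syt7 (26.5 CPM, nearest 14.9) and Doc2a (1.45, nearest 0.23), and MAL-BG 5 for Erc2 (2.66, nearest 0.816) and Vamp1 (18.8, nearest 14.0). MAL-BG 6 was high for Napb (6.36 CPM, nearest 4.76) and MAL-BG 1 for Sv2b (0.825, nearest 0.276).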

How the results depend on the processing

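Of the 34 members, 26 kept their call against CON in every alternative that tested them. Against MAL, 26 kept theirs, called or not, in every alternative that tested them. Counts of members called lower ran from 26 to 30 against CON and from 26 to 29 against MAL when each library was left out, and were 30 and 28 with DESeq2. They were 28 and 26 with length and GC offsets, and 27 and 24 with these offsets and mean log2 CPM scaling together. A filter within MAL-BG alone kept 21 members and 34 other presynaptic genes, of which 17 and 22 were called lower against CON and 16 and 20 against MAL, with fewer genes tested. Relatives called lower against CON numbered 0 with mean log2 CPM scaling, 5 with library totals, and 1 with offsets and mean log2 CPM scaling together. Against MAL they numbered 0 in the first and last of these, and from 1 (without MAL-BG 2, 4, or 7) to 4 when a library was left out. Relatives called higher against CON numbered 9 with mean log2 CPM scaling and 11 with the offsets joined to it, and against MAL 9, 9, and 8 with no fold threshold.

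Some single members turned sign. Bsn was 0.17 against CON and 0.17 against MAL with offsets and mean log2 CPM scaling together. Syt7 was 0.17 against CON with mean log2 CPM scaling, 0.06 with the offsets, and 0.35 with both, and from -0.41 to 0.13 when each library was left out. Against MAL the values of Syt7 were 0.23, 0.16, and 0.42, and from -0.32 to 0.24. Sv2a was 0.15 against CON with mean log2 CPM scaling, 0.17 with both, and -0.06 against MAL with library totals. The cause was not tested. Bsn lost its call without CON 3 against CON, and without MAL 5, MAL-BG 3, MAL-BG 4, or MAL-BG 7 against MAL. Bsn also lost both calls with mean log2 CPM scaling (-0.41 and -0.33) and with the offsets, and the call against MAL with DESeq2 or its size factors (-0.58) and with CON 1 and MAL 4 omitted (-0.54). Unc13c lost its call against MAL without MAL 1 (-1.31) or MAL-BG 7 (-1.26), with the offsets (-1.17), and with both (-0.95), where Unc13a also lost its call (-0.57). Slc32a1 lost its call against CON without any 1 of CON 2 to 4, MAL 1, 2, 3, or 5, or MAL-BG 1 or 3 to 7, and was called against MAL without CON 1, MAL 4, or MAL-BG 2.

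No paired analysis was possible because the columns of the table carry running numbers that match no sample title. MAL-BG libraries were deeper than the others, and with all libraries thinned to 10312703 counts the call of Slc32a1 against CON was lost (-1.77).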
